A study of Sus scrofa with 61 samples.

Results

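Versican, decorin, biglycan, lumican, fibromodulin, osteoglycin, asporin, PRELP and perlecan (genes VCAN, DCN, BGN, LUM, FMOD, OGN, ASPN, PRELP and HSPG2) are proteoglycans or leucine-rich proteins of the extracellular matrix. Their transcripts were followed in the longissimus muscle of pig fetuses near the end of gestation. A probe was taken as a member where the name the array gives it, or the symbol it carries in the gene lists published with the study, is 1 of these 9 genes. This gave 32 of the 60305 probes on the array, with 12 probes for LUM, 8 for DCN, 3 for VCAN, 2 each for BGN, OGN and ASPN, and 1 each for FMOD, PRELP and HSPG2. Of them, 31 were among the 42436 probes bright enough to be tested, and DCN probe O10060, well above background on 5 of 61 arrays, was not. The published lists alone named 3 of the probes, 1 each of DCN, LUM and OGN, and those lists were chosen on these same fetuses.

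The 61 fetuses, 1 array each, belonged to 4 genotypes and 2 gestational ages, day 90 and day 110. Purebred Large White fetuses (LW, 8 at day 90 and 9 at day 110) and purebred Meishan fetuses (MS, 8 and 7) stand for a breed with high and a breed with low mortality at birth. The reciprocal crosses were LWMS, carried by MS sows and sired by LW boars (8 and 8), and MSLW, carried by LW sows and sired by MS boars (8 and 5). All fetuses were males, and none received a treatment. The study states that their X-chromosome genes came from the dam, and BGN lies on that chromosome. Each value comes from total RNA of ground muscle, so all cell types of the tissue contribute to it.

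The members split into families with different parts in the matrix. Versican is a large chondroitin sulfate proteoglycan that binds hyaluronan and is abundant in young, loosely packed connective tissue, and perlecan carries heparan sulfate chains in basement membranes such as the one around each muscle fibre. Decorin, biglycan, asporin, lumican, fibromodulin, PRELP and osteoglycin are small leucine-rich proteins that bind collagen or growth factors. In muscle they are made mainly by the fibroblasts of the connective tissue between fibres.

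A level in the following is the log2 intensity after quantile normalization, and a difference on that scale is a log2 fold change. The main probe of a gene is its tested probe with the highest mean intensity. Each array oligonucleotide has 60 bases, and those of the 6 genes that set the pattern of the data are shown 5′ to 3′ as the array files give them, since each measures only this stretch of a transcript. Capitals mark AATAAA and ATTAAA, the polyadenylation hexamers, searched on the strand printed.
VCAN, A_72_P322278: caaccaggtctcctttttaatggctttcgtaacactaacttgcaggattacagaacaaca
ASPN, O14206: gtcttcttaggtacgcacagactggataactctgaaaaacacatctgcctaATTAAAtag
OGN, O562: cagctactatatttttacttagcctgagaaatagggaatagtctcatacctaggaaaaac
BGN, O2050: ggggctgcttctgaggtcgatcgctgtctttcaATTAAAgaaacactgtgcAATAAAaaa
DCN, A_72_P596994: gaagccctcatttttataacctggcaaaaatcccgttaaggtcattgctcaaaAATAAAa
LUM, A_72_P769870: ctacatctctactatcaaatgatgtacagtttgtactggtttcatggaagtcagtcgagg
The main probes of ASPN and DCN hold 1 of the hexamers and that of BGN holds both, and at least 1 occurs in 4 of the 32 member probes and in 14.15% of all probes on the array.

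Arrays had between 34347 and 45684 spots well above background, 4 to 802 non-uniform spots, at most 2 saturated spots, and pairwise correlations of 0.906 to 0.993. Before normalization, the 75th percentile of the signal ran from 613 to 1156 at day 90 and from 470 to 777 at day 110. At day 110 it was 584 to 777 in LW and 470 to 645 in MS, so array brightness went in part with age and breed. They lay on 8 slides, each of which held 6 to 8 of the 8 groups. The array that resembled its own group least was MSLW day 90 replicate 2, with a median correlation of 0.962. The labelled tissue was checked on 7 muscle fibre genes. Their summed level lay between 20.7 and 21.1 at day 90 and between 21.0 and 21.2 at day 110, with 3 of 7 higher at day 110 in each genotype. In MS 1 of the 7 was called lower at day 110, and in the other genotypes none was.

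From day 90 to day 110, VCAN, ASPN, OGN, BGN, DCN, LUM and FMOD fell in all 4 genotypes, while PRELP and HSPG2 passed the test in none of the 4 genotypes. Over the 9 genes the median change was -1.26 for LW fetuses, -1.83 for MS, -1.45 for LWMS and -1.55 for MSLW, against 0.026, 0.034, 0.043 and 0.022 over all tested probes. A change was called at a Benjamini-Hochberg adjusted p under 1%, from limma's moderated two-sided test fitted over all tested probes. At that threshold 23.5% of all tested probes were lower at day 110 for LW, 28.0% for MS, 25.7% for LWMS and 23.8% for MSLW, and 18.4% were lower in all 4. Of the 31 tested member probes, 26 were lower in each genotype, and none was higher in any. Age differs only between sows, and the sow was not fitted, so the p-values for age may be too small. In whole muscle, fewer cells of the type that expresses a gene and less RNA per cell cannot be told apart.

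**Figure D1:**
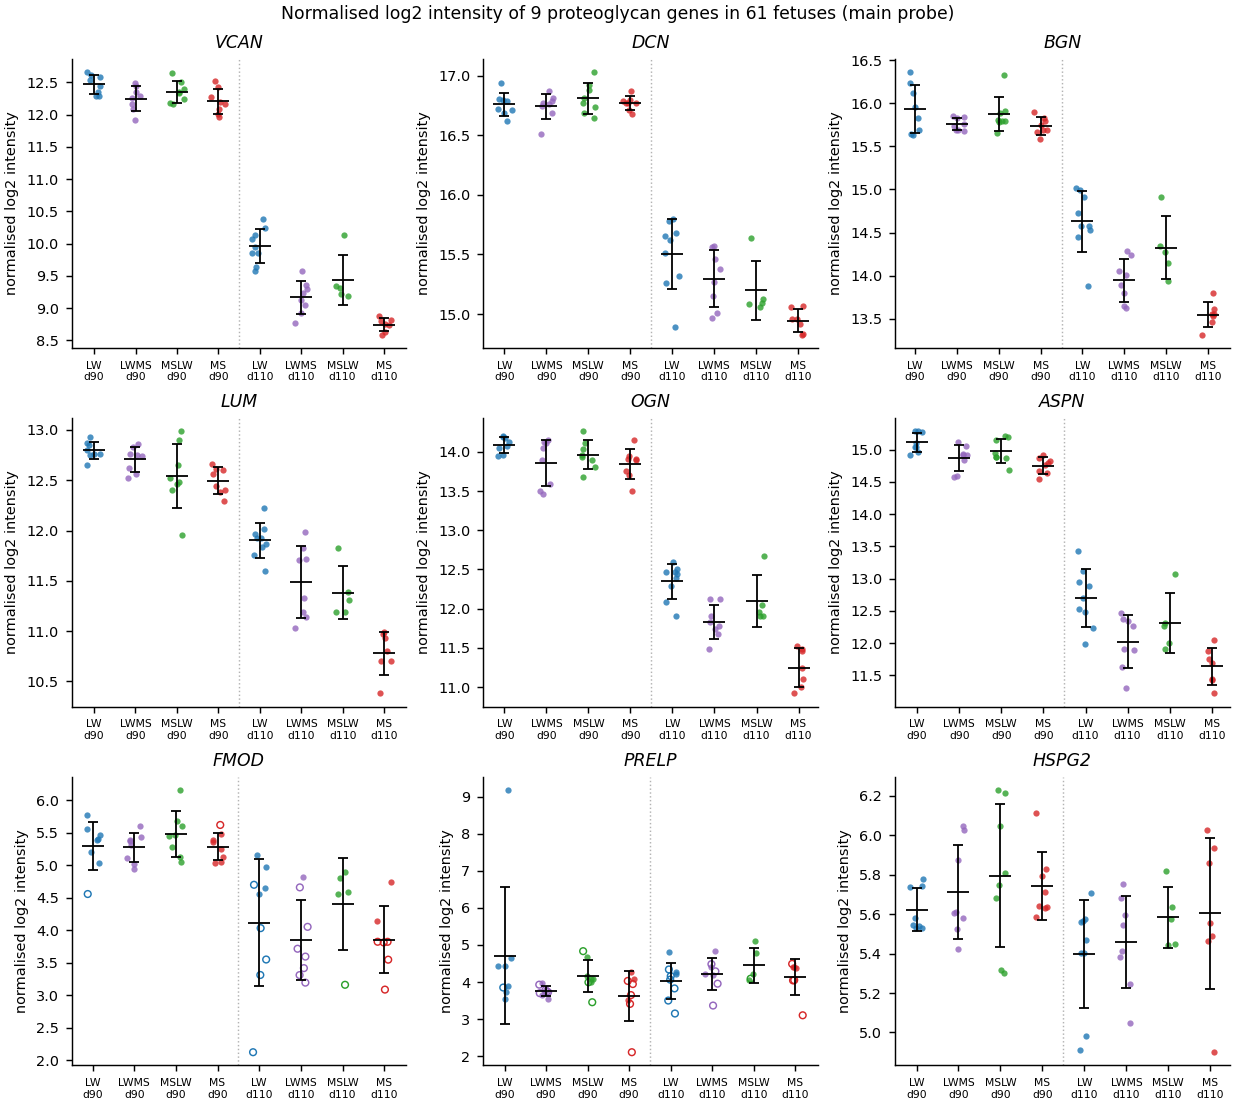
Normalised log2 intensity of the main probe of each of the 9 genes in each of the 61 fetuses, grouped by genotype and gestational age. Points are fetuses, hollow where the probe was not well above background, and lines with bars are the mean ± SD. For VCAN, DCN, BGN, OGN and ASPN every day-110 fetus lies below every day-90 fetus, and among the day-110 groups the MS mean is the lowest for these 5 genes and LUM.

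VCAN had the largest change of the 9 genes in each genotype. In LW fetuses its level ran from 12.29 to 12.66 at day 90 (median 12.49) and from 9.58 to 10.38 at day 110 (median 9.94). In MS fetuses it ran from 11.96 to 12.53 (median 12.18) and from 8.59 to 8.87 (median 8.76). LWMS fetuses had levels of 11.92 to 12.49 (median 12.27) and of 8.77 to 9.58 (median 9.18). The 8 MSLW fetuses of day 90 lay between 12.17 and 12.65 (median 12.34), and the 5 of day 110 were at 9.19, 9.31, 10.13, 9.34 and 9.22. No fetus of day 110 reached the lowest fetus of day 90, which was at 11.92, and the highest MS fetus of day 110 lay below the lowest LW fetus of that age. The change was -2.50 in LW (SE 0.11, adjusted p 5.53e-27), -3.46 in MS (SE 0.11, adjusted p 9.72e-32), -3.08 in LWMS and -2.91 in MSLW, that is 5.66-fold, 11.0-fold, 8.47-fold and 7.52-fold lower. A second probe, A_72_P409933, gave -2.37, -3.21, -2.83 and -2.79.

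ASPN and OGN, class I and class III members of the small leucine-rich family that lie close together in the genome, came next. ASPN, which encodes asporin, a collagen-binding protein that also binds TGF-beta, had levels of 14.92 to 15.29 in LW at day 90 (median 15.07) and of 11.99 to 13.43 at day 110 (median 12.70). In MS its levels were 14.54 to 14.92 (median 14.78) and 11.22 to 12.05 (median 11.69). The LWMS levels were 14.57 to 15.12 (median 14.92) and 11.30 to 12.47 (median 12.09), those of MSLW were 14.68 to 15.21 at day 90 (median 14.92), and the 5 MSLW fetuses of day 110 were at 12.26, 11.91, 13.08, 12.01 and 12.32. The day-90 and day-110 fetuses did not overlap, whereas LW and MS overlapped slightly at day 110. The ASPN change was -2.41 (SE 0.15, adjusted p 4.34e-21) for LW, -3.11 (SE 0.16, adjusted p 6.85e-25) for MS, -2.84 for LWMS and -2.67 for MSLW.

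OGN encodes osteoglycin, also called mimecan, a small keratan sulfate proteoglycan in some tissues. LW fetuses were at 13.95 to 14.21 at day 90 (median 14.10) and at 11.91 to 12.60 at day 110 (median 12.44). MS fetuses were at 13.50 to 14.15 (median 13.90) and at 10.92 to 11.53 (median 11.25). LWMS fetuses were at 13.47 to 14.15 (median 13.98) and at 11.49 to 12.12 (median 11.80), MSLW fetuses of day 90 at 13.68 to 14.27 (median 13.95), and the 5 of day 110 at 11.96, 11.90, 12.67, 11.91 and 12.05. All day-110 fetuses lay below all day-90 fetuses, and at day 110 all MS fetuses lay below all LW fetuses. The OGN change was -1.74 in LW (SE 0.11, adjusted p 1.94e-20), -2.60 in MS (SE 0.12, adjusted p 8.48e-27), -2.03 in LWMS and -1.87 in MSLW, and the probe named only by the published lists gave -1.49, -2.11, -1.77 and -1.65.

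DCN and BGN, the class I pair whose products carry chondroitin or dermatan sulfate and bind TGF-beta, changed less than ASPN. DCN levels in LW ran from 16.62 to 16.94 at day 90 (median 16.75) and from 14.89 to 15.80 at day 110 (median 15.62). In MS they ran from 16.68 to 16.87 (median 16.77) and from 14.83 to 15.07 (median 14.95). LWMS fetuses lay at 16.51 to 16.87 (median 16.77) and 14.97 to 15.57 (median 15.32), MSLW fetuses of day 90 at 16.64 to 17.03 (median 16.79), and the 5 of day 110 at 15.06, 15.09, 15.64, 15.13 and 15.08. At day 90 the 4 genotypes had nearly the same DCN level, and at day 110 the lowest LW fetus lay inside the MS range. The DCN change was -1.26 (SE 0.088, adjusted p 1.20e-18) for LW, -1.83 (SE 0.094, adjusted p 1.71e-24) for MS, -1.45 for LWMS and -1.61 for MSLW. Under scaling to the 75th percentile it was -1.10 for MS and -0.89 for LWMS, still called.

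For BGN, LW fetuses had levels of 15.63 to 16.36 at day 90 (median 15.89) and of 13.88 to 15.02 at day 110 (median 14.58). MS fetuses had 15.59 to 15.90 (median 15.72) and 13.31 to 13.80 (median 13.55). LWMS fetuses had 15.68 to 15.85 (median 15.75) and 13.62 to 14.28 (median 13.95), MSLW fetuses had 15.66 to 16.33 at day 90 (median 15.80), and the 5 MSLW fetuses of day 110 were at 14.14, 13.94, 14.92, 14.35 and 14.27. Again no fetus of day 110 reached a fetus of day 90, and MS and LW separated at day 110. The BGN change was -1.31 in LW (SE 0.12, adjusted p 1.05e-14), -2.19 in MS (SE 0.12, adjusted p 9.27e-23), -1.82 in LWMS and -1.55 in MSLW.

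LUM and FMOD are the class II members, which bind collagen fibrils and carry keratan sulfate in some tissues. LUM levels in LW were 12.65 to 12.93 at day 90 (median 12.78) and 11.60 to 12.23 at day 110 (median 11.93), and in MS 12.29 to 12.67 (median 12.50) and 10.38 to 10.99 (median 10.80). LWMS fetuses were at 12.52 to 12.86 (median 12.75) and 11.03 to 11.98 (median 11.52), MSLW fetuses of day 90 at 11.96 to 12.99 (median 12.50), and the 5 of day 110 at 11.39, 11.31, 11.82, 11.19 and 11.19. Day-90 and day-110 fetuses overlapped over all genotypes, with the lowest day-90 fetus at 11.96, in MSLW, and the highest day-110 fetus at 12.23, in LW, but within each genotype the 2 ages did not overlap. The LUM change was -0.90 (SE 0.11, adjusted p 3.57e-10) for LW, -1.71 (SE 0.12, adjusted p 2.40e-19) for MS, -1.22 for LWMS and -1.17 for MSLW.

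FMOD, whose single probe is dim, had levels of 4.56 to 5.78 in LW at day 90 (median 5.39) and of 2.13 to 5.16 at day 110 (median 4.55), and of 5.03 to 5.62 (median 5.31) and 3.09 to 4.74 (median 3.82) in MS. In LWMS the levels were 4.94 to 5.60 (median 5.35) and 3.20 to 4.82 (median 3.66), in MSLW at day 90 they were 5.04 to 6.16 (median 5.45), and the 5 MSLW fetuses of day 110 were at 4.89, 4.59, 4.80, 3.16 and 4.55. The probe was well above background in 7 of 8 LW, 7 of 8 MS, 8 of 8 LWMS and 8 of 8 MSLW fetuses of day 90, but in 4 of 9, 2 of 7, 1 of 8 and 4 of 5 fetuses of day 110. As the array files give it, the probe holds no AATAAA, but its opposite strand holds 1. Which strand it measures was not tested. The fitted FMOD change was -1.18 in LW (SE 0.26, adjusted p 1.30e-04), -1.43 in MS (SE 0.28, adjusted p 1.25e-05), -1.43 in LWMS (adjusted p 8.08e-06) and -1.07 in MSLW (adjusted p 2.63e-03). Without MSLW day 110 replicate 4 the change in MSLW was -0.76 with an adjusted p of 0.0376, so that this call depends on 1 fetus. The size of the FMOD change depended on the background treatment, since with normexp it was -0.29 for LW, -0.33 for MS, -0.37 for LWMS and -0.34 for MSLW, and with the scanner's median signal -0.49, -0.58, -0.63 and -0.55, all still called.

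PRELP, a class II protein that binds heparan sulfate and collagen, and HSPG2 were the members that passed the test in no genotype. PRELP levels were 3.54 to 9.19 in LW at day 90 (median 4.17), where 1 fetus at 9.19 stood far above the next at 4.65, and 3.15 to 4.81 at day 110 (median 4.16). The other groups ranged from 2.11 to 5.10, and 32 of the 61 arrays measured the probe well above background. The PRELP difference between ages was -0.68 for LW, 0.50 for MS, 0.45 for LWMS and 0.29 for MSLW, with 95% intervals that span 0. Without the fetus at 9.19 the LW difference was -0.039. HSPG2 was well above background on all 61 arrays, with levels of 5.30 to 6.23 at day 90 and of 4.90 to 6.02 at day 110. Its differences were -0.23 in LW (95% interval -0.48 to 0.026), -0.14 in MS (-0.41 to 0.13), -0.25 in LWMS (-0.51 to 0.0049) and -0.21 in MSLW (-0.50 to 0.085).

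**Figure D2:**
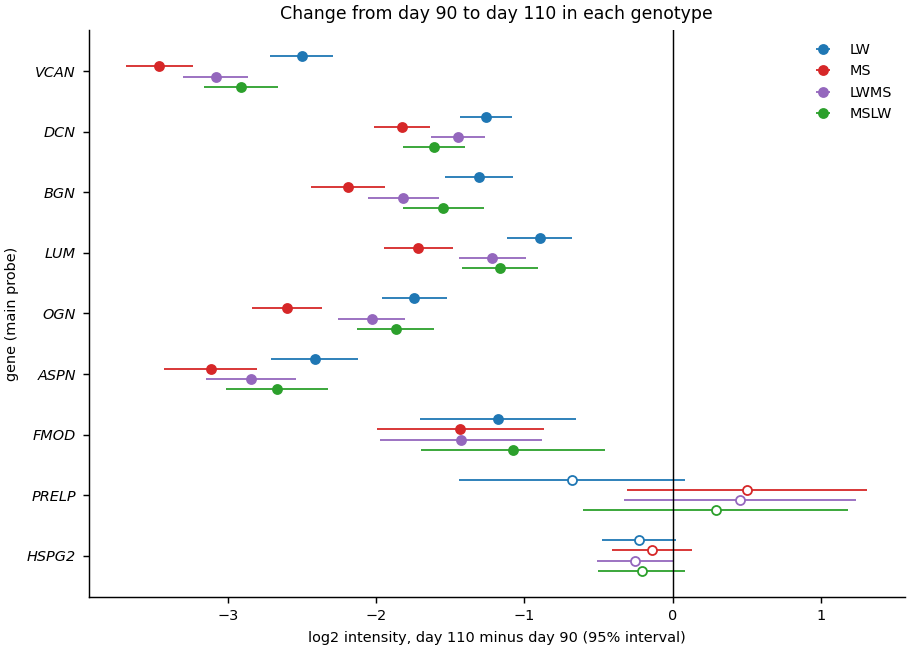
Change in log2 intensity from day 90 to day 110 for the main probe of each of the 9 genes, with points for LW, MS, LWMS and MSLW and bars for the 95% interval. Filled points have an adjusted p under 1%. For VCAN, DCN, BGN, LUM, OGN and ASPN the LW point is nearest to 0 and the MS point farthest from it, and the points of PRELP and HSPG2 are all hollow.

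The order of the 8 groups was much the same for VCAN, DCN, BGN, LUM, OGN and ASPN. The 4 day-90 groups came first, and each neighbouring pair of them differed by less than the larger of its SDs. The widest step down was from the lowest day-90 group to LW at day 110, 2.24 for VCAN, 2.05 for ASPN, 1.496 for OGN, 1.24 for DCN and 1.11 for BGN. For LUM that step was 0.59, about as wide as the step of 0.60 between MSLW and MS at day 110. LW was the highest and MS the lowest day-110 group for these 6 genes. MSLW and LWMS lay between them, with a step from LW to the next group beyond the larger SD for VCAN (0.53) and LUM (0.41), and not for DCN, BGN, OGN and ASPN. Age accounted for 93.5% of the variance of VCAN, 92.2% for DCN, 91.7% for ASPN, 88.7% for OGN, 84.1% for BGN, 73.2% for LUM and 59.4% for FMOD, but for 16.1% for HSPG2 and 0.481% for PRELP.

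Slide accounted for 5.94% to 24.0% of the variance within groups for the 9 main probes. Within a slide, the age difference was negative on every slide with both ages for VCAN, DCN, BGN, LUM, OGN and ASPN, that is on 7 slides for LW, 7 for MS, 8 for LWMS and 5 for MSLW. For FMOD it was negative on 6 of 7, 7 of 7, 8 of 8 and 5 of 5 slides.

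Most markers of connective tissue cells moved with the members. Of 7 fibroblast markers, 6 (COL1A1, COL1A2, COL3A1, PDGFRA, THY1 and PDGFRB) fell in each genotype. DPT fell in none and was called higher at day 110 in LWMS. The summed level of all 7 lay at 18.19 to 18.60 in LW, 18.38 to 18.52 in MS, 18.32 to 18.56 in LWMS and 18.28 to 18.66 in MSLW at day 90. At day 110 it lay at 16.68 to 17.45, 15.96 to 16.38, 16.30 to 17.28 and 16.58 to 17.34, so that the ages did not overlap and MS lay below LW. Both tested tendon markers (TNMD and THBS4) fell in each genotype, with a summed level of 10.2 to 12.1 at day 90 and 6.74 to 9.92 at day 110, while SCX and MKX had no tested probe. Of the cartilage markers 2 of 3 (ACAN and COL2A1) fell in each genotype, and COMP had no tested probe. COL9A1 fell in none and was called higher at day 110 in MSLW. The summed level of all 3 tested was 9.46 to 12.02 at day 90 and 6.90 to 9.84 at day 110, so that the ages overlapped. Among the other lists, 3 of 5 endothelial markers were lower and 1 higher in all 4 genotypes, 2 of 4 satellite cell markers were lower, 1 of 3 smooth muscle and pericyte markers was lower and 1 higher, and 1 of 3 Schwann cell markers was higher. None of 4 adipocyte, 3 leukocyte and 2 erythroid markers was lower, or higher, in all 4. By the same rule 18.4% of all tested probes were lower and 15.5% higher. The part of a changed share of connective tissue cells in the fall of the members was not tested.

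MS and LW fetuses were compared at each age to ask how far the breeds differ. All LW fetuses were carried by LW sows and all MS fetuses by MS sows, so the breed of the fetus and that of the sow cannot be told apart. The sow was not fitted, so the p-values between breeds may be too small. At day 90 no main probe of the 9 genes was called in either direction, where 12.8% of all tested probes were called. Of the 31 member probes, 2 of LUM were called lower in MS and 1 of DCN higher, beside 6.61% and 6.23% of all tested probes. The MS minus LW differences were -0.26 for VCAN, -0.36 for ASPN, -0.30 for LUM, -0.25 for OGN, -0.20 for BGN, 0.011 for DCN and -0.0076 for FMOD. The unadjusted p was under 0.05 for VCAN, ASPN, LUM, OGN and PRELP. LUM had an adjusted p of 0.0496 and ASPN of 0.0841, and when only the LW and MS fetuses of day 90 were fitted both were called, with the same differences and adjusted p of 2.38e-03 and 1.74e-03. For ASPN the highest MS fetus of this age, at 14.923, lay barely below the lowest LW fetus, at 14.924. For DCN the difference changed sign with the scaling, to -0.11 under scaling of each array to its 75th percentile. PRELP differed by -1.09 (adjusted p 0.0399), or by -0.45 without the LW fetus at 9.19, and HSPG2 by 0.12.

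At day 110, VCAN, LUM, OGN, BGN, ASPN and DCN were lower in MS than in LW, and FMOD, PRELP and HSPG2 were not called. The difference was -1.22 for VCAN (SE 0.11, adjusted p 2.22e-13), -1.12 for LUM (SE 0.11, adjusted p 8.87e-12), -1.11 for OGN (SE 0.11, adjusted p 1.38e-11), -1.08 for BGN (SE 0.12, adjusted p 1.39e-10), -1.06 for ASPN (SE 0.15, adjusted p 9.85e-08) and -0.56 for DCN (SE 0.091, adjusted p 1.54e-06). In fold terms MS fetuses were 2.33-fold lower for VCAN and 1.47-fold lower for DCN. Every MS fetus lay below every LW fetus for VCAN, BGN, LUM and OGN. Lower in MS at this age were 15.2% of all tested probes and 23 of the 31 member probes. On each of the 6 slides with both breeds at day 110 the difference was negative for all 6 genes, from -1.79 to -0.84 for VCAN and from -0.97 to -0.38 for DCN. The DCN difference was -0.27 under scaling to the 75th percentile. FMOD differed by -0.26 (95% interval -0.81 to 0.29), PRELP by 0.091 (-0.70 to 0.88) and HSPG2 by 0.21 (-0.054 to 0.47).

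**Figure D3:**
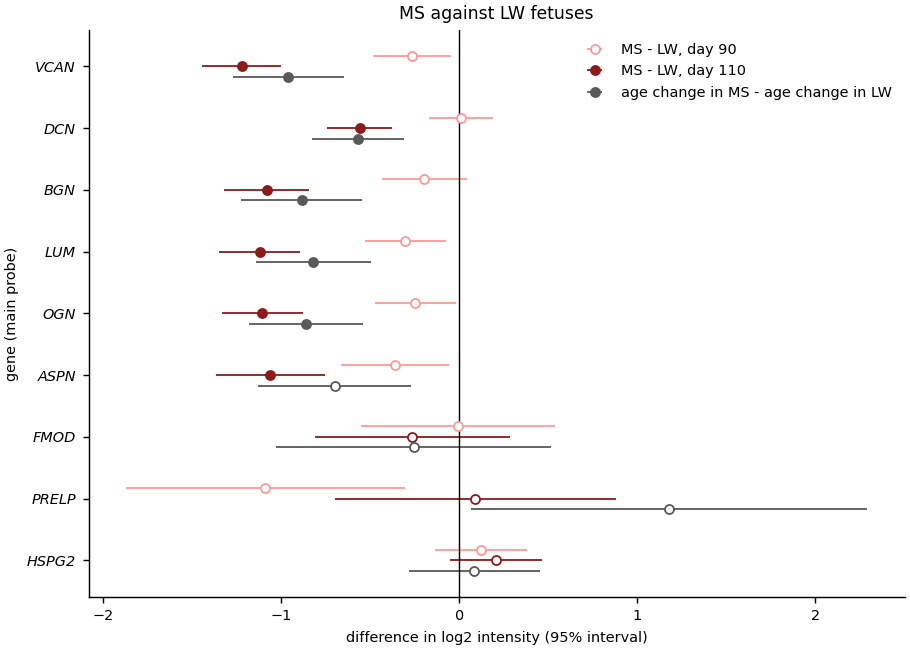
Difference in log2 intensity of the main probe of each of the 9 genes, with points for MS minus LW at day 90, for MS minus LW at day 110, and for the age change in MS minus that in LW, and bars for the 95% interval. Filled points have an adjusted p under 1%. At day 90 all points are hollow, while at day 110 those of VCAN, DCN, BGN, LUM, OGN and ASPN are filled and negative.

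The test of the difference itself, the age change in MS minus that in LW, was passed by VCAN (-0.96, SE 0.16, adjusted p 2.46e-05), BGN (-0.88, SE 0.17, adjusted p 2.48e-04), OGN (-0.86, SE 0.16, adjusted p 1.75e-04), LUM (-0.82, SE 0.16, adjusted p 3.34e-04) and DCN (-0.57, SE 0.13, adjusted p 1.75e-03). These 5 fell more in MS than in LW. ASPN had a value of -0.70 with an adjusted p of 0.0213, FMOD -0.25, HSPG2 0.086 and PRELP 1.18 (adjusted p 0.151, or 0.54 without the LW fetus at 9.19). In this comparison 3.40% of all tested probes were called with a lower value, as were 16 of the 31 member probes. That count is not independent of the data. It holds the 3 probes named only by the published lists, which were chosen on these fetuses for effects of age with genotype. The main probes of the 5 called genes also stand in those lists, and those of ASPN, FMOD, PRELP and HSPG2 do not. For each gene, as many probes were called here as those lists hold. The 5 calls and the count of 16 are thus no support apart from those lists. The count also holds LUM probes that share the same stretch, with a pair of identical sequence. Under scaling to the 75th percentile the DCN value was -0.17 with an adjusted p of 0.348, and the share of all calls that were lower moved from 57.1% to 36.3%. With the mean of its probes in place of the main probe, VCAN had -0.65 (adjusted p 0.0195). The fibroblast markers moved alongside, with 4 of 7 lower in MS at day 110 and 4 of 7 called with a lower value in this comparison. Both tested tendon markers were lower in MS at day 110 as well, but 0 of the 2 were called in the difference in age change. Of the 3 tested cartilage markers 0 were called in either comparison. The part of these markers in the breed difference of the members was not tested.

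The reciprocal crosses, which share both breeds and differ in which one was the dam, were then compared. No member was called between LWMS and MSLW at either age, with 0.500% of all tested probes called in either direction at day 90 and 0.917% at day 110. At day 90 the unadjusted p was above 0.05 for all 9 genes. At day 110 BGN came closest, at -0.38 (95% interval -0.65 to -0.11, adjusted p 0.128), and VCAN (-0.27, 95% interval -0.53 to -0.023) and OGN (-0.26, 95% interval -0.52 to -0.0057) also had an unadjusted p under 0.05. Without MSLW day 110 replicate 3 these 3 differences were -0.23 for BGN, -0.10 for VCAN and -0.12 for OGN. LUM differed by 0.11 (-0.15 to 0.37) and DCN by 0.096 (-0.11 to 0.30). Against the mean of LW and MS, no member was called for the mean of the crosses, where 0.0495% of all tested probes were called at day 90 and 0.0778% at day 110. None of the 9 had an unadjusted p under 0.05 in these comparisons. The difference at day 110 was 0.17 for OGN (95% interval -0.0059 to 0.34), 0.094 for LUM (-0.078 to 0.27) and between -0.053 and 0.046 for VCAN, DCN, BGN and ASPN.

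In the parental model, the age change with MS dams was compared with that under LW dams, and likewise for sires, over all 61 fetuses. By maternal genotype, VCAN (-0.57, SE 0.11, adjusted p 6.81e-04), BGN (-0.57, SE 0.12, adjusted p 1.70e-03) and OGN (-0.49, SE 0.12, adjusted p 5.99e-03) were called, so that the fall was greater with MS dams. Age and dam genotype differ only between sows, and the sow was not fitted, so these p-values may be too small. In either direction 3.04% of all tested probes were called by maternal and 0.462% by paternal genotype. The study, which fitted the sow, reported more probes for the paternal than for the maternal genotype. LUM had -0.42 (adjusted p 0.0152), ASPN -0.44 (adjusted p 0.0646) and DCN -0.20 (adjusted p 0.176). Of all tested probes 1.88% were called with a lower value in this comparison, and of the 31 member probes 3. The VCAN call was lost with the mean of its probes (-0.42, adjusted p 0.0570). The OGN call was lost, and a LUM call was gained, with the scanner's median signal (OGN -0.44, LUM -0.49), and without MSLW day 110 replicate 3 OGN had -0.42 with an adjusted p of 0.0159. The dam of a fetus is also the sow that carried it, so that the maternal genome and the uterus it grew in cannot be told apart. For BGN, on the X chromosome, these males carry only the dam's allele and none from the sire. Its maternal value is therefore not of the same kind as those of VCAN and OGN.

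By paternal genotype no member was called, and 0.325% of all tested probes were called with a lower value. DCN had -0.37 (adjusted p 0.0262), VCAN -0.39 (adjusted p 0.0583), LUM -0.39 (adjusted p 0.0749), OGN -0.36 (adjusted p 0.119), BGN -0.31 (adjusted p 0.214) and ASPN -0.26 (adjusted p 0.456). For VCAN, DCN, LUM, OGN and BGN the unadjusted p was under 0.05. Without MSLW day 110 replicate 3, the fetus with the highest VCAN, DCN, BGN, LUM, OGN and ASPN level of its group, VCAN (-0.47, adjusted p 5.80e-03) and DCN (-0.42, adjusted p 4.57e-03) were called. Whether the maternal and paternal values of a gene differ from each other was not tested. Under scaling to the 75th percentile the share of calls that were lower moved from 61.8% to 48.7% for the maternal and from 70.4% to 53.7% for the paternal comparison.

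All 7 tested DCN probes fell in each genotype, from -2.18 to -1.53 for MS and from -1.59 to -0.67 for LW, where 1 probe gave both -2.18 and -0.67. At day 110 MS minus LW ran from -0.56 to -0.40 over the 7 probes, and 6 of them were called lower. At day 90 MS minus LW was -0.14 to 1.08 over these probes, where the DCN probe at 1.08 was the 1 called, and the correlation of the other probes with the main probe ran from 0.19 to 0.92 (median 0.86) over the 61 arrays after group and slide means were removed. VCAN probe O12236 was dim, and well above background in no LWMS or MSLW fetus of day 110, so that its day-90 level was at least 1.46-fold higher in LWMS and at least 1.75-fold higher in MSLW, where the day-110 level was set to the dimmest signal marked as well above background. BGN, OGN and ASPN each had a second probe that fell in all 4 genotypes. In MS those second probes changed by -1.86, -2.11 and -2.87.

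**Figure D4:**
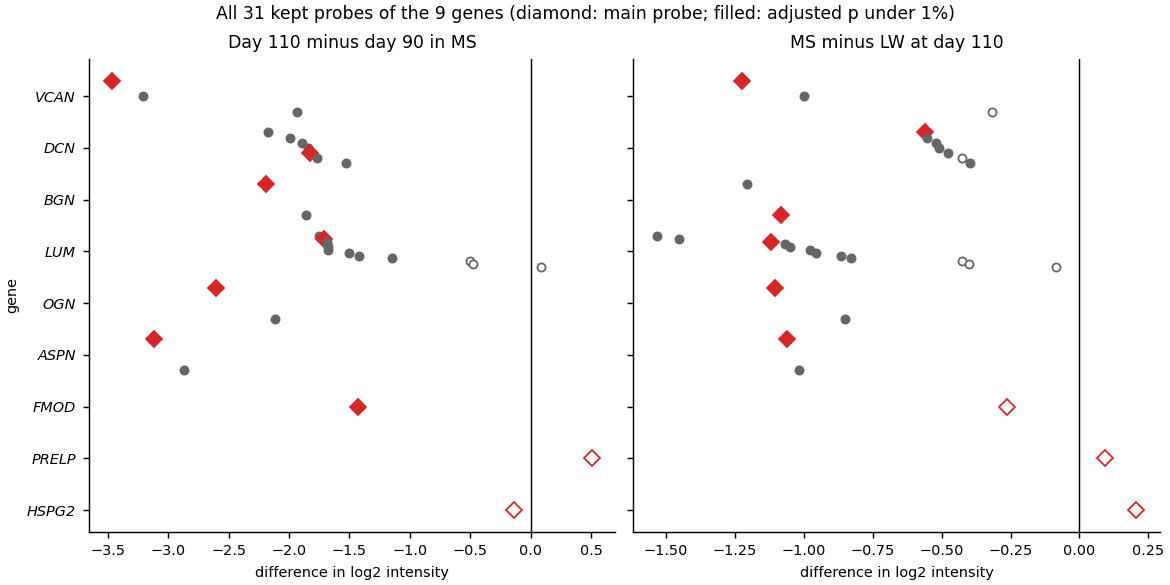
Difference in log2 intensity for all 31 tested probes of the 9 genes, in MS fetuses from day 90 to day 110 (left) and between MS and LW at day 110 (right). Diamonds are main probes, dots are other probes, and filled symbols have an adjusted p under 1%. In MS 26 probes are filled and lie below 0, and the hollow ones are 3 of LUM and the single probes of PRELP and HSPG2.

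Of the 12 LUM probes, 9 were lower at day 110 in each genotype, and 9 had a lower level in MS than in LW fetuses of that age. Probes A_72_P455882 and O229 have the same 60 bases. Probe A_72_P293589 and the probe listed under a DDBJ record, named as LUM only by the published lists, cover the same stretch from 1 and 2 bases away and differ from it by the substitution T37G, with positions counted from 1 at the 5′ end of A_72_P455882. They are shown because the size of the breed difference went with this base, which is in capitals.
A_72_P455882 and O229: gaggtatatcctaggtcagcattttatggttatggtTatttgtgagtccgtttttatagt
A_72_P293589: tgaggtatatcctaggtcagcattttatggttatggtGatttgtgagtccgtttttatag
Probe of the DDBJ record: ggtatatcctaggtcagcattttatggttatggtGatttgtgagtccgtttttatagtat
At day 110 MS minus LW was -0.96 and -0.98 for the T probes, and -1.45 and -1.53 for the G probes. At day 90 it was -0.13 and -0.17 for the T probes, which were not called, and -0.60 (adjusted p 2.51e-05) and -0.70 (adjusted p 1.52e-06) for the G probes. The age change in MS was similar between them, at -1.68 and -1.69 for the T probes and -1.75 and -1.68 for the G probes.

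Within a fetus, the log2 difference of A_72_P293589 minus A_72_P455882 lay between 0.14 and 0.44 in LW (mean 0.29, n = 17) and between -0.32 and -0.053 in MS (mean -0.19, n = 15). LWMS fetuses lay between -0.012 and 0.25 (mean 0.12, n = 16) and MSLW fetuses between -0.039 and 0.16 (mean 0.065, n = 13). LW and MS fetuses did not overlap, and the means of the crosses fell between theirs. The DDBJ-record probe minus O229 gave 0.062 to 0.29 in LW and -0.48 to -0.13 in MS, with -0.086 to 0.14 in LWMS and -0.14 to 0.17 in MSLW. For the pair of probes with the same sequence all fetuses lay between -0.19 and 0.14, with means of -0.044 in LW and -0.015 in MS. The pairs were chosen after their values were seen, so no test is given, and the cause of the pattern was not tested.

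**Figure D5:**
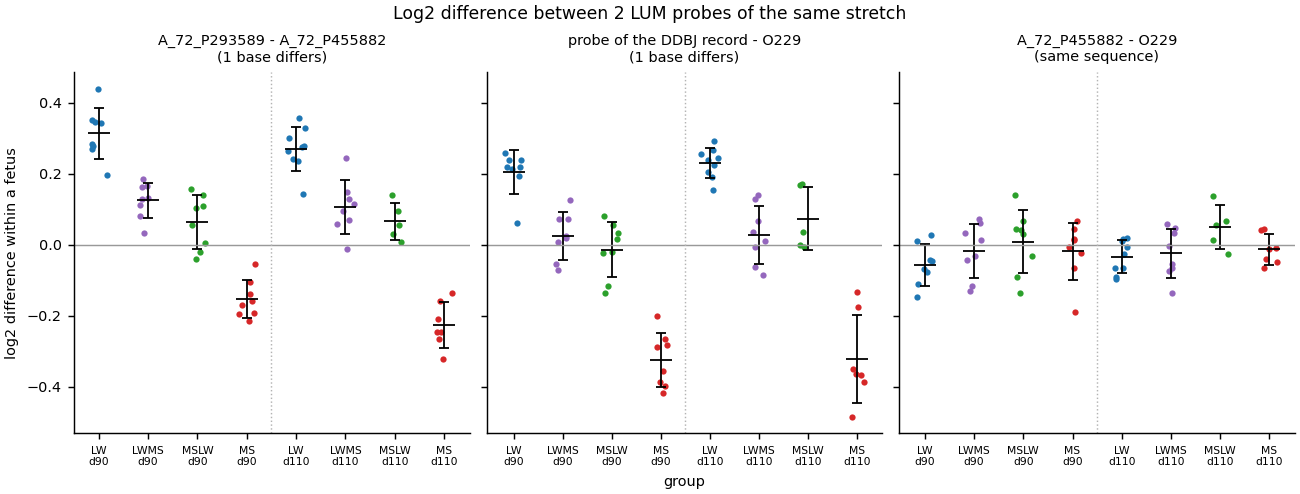
Log2 difference within each fetus between LUM probes of the same stretch, by genotype and age, for a pair that differs in 1 base (left), a second such pair (middle) and a pair with the same sequence (right). Points are fetuses and lines with bars the mean ± SD. In the left and middle panels the LW fetuses lie above 0, the MS fetuses below 0 and the means of the crosses between, while in the right panel the genotypes overlap.

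The LUM probes that were not called lower hold dinucleotide repeats. CA repeated 5 times, searched on the strand printed, occurs in 4 of the LUM probes and in 0.109% of all probes on the array, and GT repeated 5 times occurs in 1 LUM probe and in 0.159% of all probes. Capitals mark the repeat.
A_72_P665036: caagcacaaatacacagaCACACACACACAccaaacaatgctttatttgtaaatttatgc
A_72_P065926: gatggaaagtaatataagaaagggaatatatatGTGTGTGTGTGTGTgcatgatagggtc
A_72_P665036, and A_72_P624127 with which it shares its first 52 bases, differed between ages in MS by -0.51 (adjusted p 0.0626) and -0.48 (adjusted p 0.0588). A_72_P065926 differed by 0.082 (adjusted p 0.738) and shares a word of 16 bases with 54 probes not named LUM, on either strand. It shares words of 12 bases with the other LUM probes only on the opposite strand. Those words are its GT repeat against their CA repeat, so they cannot tell whether the probe lies on the LUM transcript. A repeat did not by itself go with a missing call, since A_72_P583531 (-1.15) and A_72_P573664 (-1.68), which also hold the CA repeat, were both lower in MS.

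Beside the 9 members, 99 genes of other proteoglycans and of the making, binding and cleaving of their sugar chains were listed, of which 63 had a tested probe. In this list 27 genes were lower and 7 higher at day 110 in LW, 32 and 8 in MS, 30 and 9 in LWMS, and 30 and 7 in MSLW, where 21.8%, 28.6%, 25.1% and 20.8% of all tested probes were higher. In all 4 genotypes 26 were lower and 4 higher, or 41.3% and 6.35% of the 63, beside 18.4% and 15.5% of all tested probes. The units differ, since each listed gene is counted by its main probe and the shares beside it are of all probes, named or not.

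Among other small leucine-rich genes 2 of 5 fell in all 4 genotypes. KERA, for keratocan, changed by -1.66 for LW, -2.41 for MS, -2.20 for LWMS and -1.85 for MSLW, and ECM2 by -0.77, -1.40, -1.09 and -0.93, while 1 gene, PODN (podocan), rose by 1.01, 0.67, 0.87 and 0.83 (PODN was named after its values were seen). Among other large matrix proteoglycans 2 of 7 fell and 2 rose. SPOCK3, a testican, changed by -2.55, -3.38, -2.81 and -2.75, and ACAN, the aggrecan of cartilage, by -1.62, -1.56, -1.45 and -1.87.

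The strongest fall on the list was that of HAPLN1, the link protein that fastens versican and aggrecan to hyaluronan and the neighbour of VCAN in RefSeq's annotation, at -4.48 for LW, -4.89 for MS, -5.14 for LWMS and -4.54 for MSLW. TNFAIP6, a hyaluronan-binding protein, changed by -1.63, -2.13, -1.69 and -1.83, and these 2 were the ones of 8 hyaluronan and link genes lower in all 4 genotypes. At the cell surface 4 of 8 genes fell in all 4, led by the syndecan SDC2 (-1.79, -2.41, -2.25 and -2.07) and the hyaluronan receptor CD44 (-1.65, -2.19, -1.91 and -1.83). Of 4 genes that cleave versican and aggrecan 1 fell, the protease gene ADAMTS9 (-1.18, -1.72, -1.54 and -1.30).

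Genes that build the sugar chains were also on the list. Of 14 genes of the linker and of chondroitin or dermatan sulfate, 5 fell in all 4 genotypes and 0 rose in all 4, with CHST15, a chondroitin sulfotransferase, at -0.96, -1.68, -1.43 and -1.21, and CHST14, the dermatan 4-O-sulfotransferase, at -1.11, -1.33, -1.19 and -1.30. Of 11 heparan sulfate genes 6 fell and 1 rose. HS6ST2, a heparan sulfate 6-O-sulfotransferase, changed by -1.72, -1.88, -1.74 and -1.87, and EXTL2 by -1.09, -1.34, -1.89 and -1.69. The 1 tested keratan sulfate gene, the sulfotransferase CHST2, fell (-0.68, -1.09, -0.70 and -0.98). Of 5 genes for sugar and sulfate supply 3 fell, among them PAPSS1, which makes the sulfate donor (-0.81, -1.34, -1.15 and -0.69), and the sulfate transporter SLC26A2 (-0.34, -0.85, -0.66 and -0.56).

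Between breeds, 21 of the 63 listed genes were lower and 6 higher in MS at day 110, and 8 were lower and 5 higher at day 90. Over all tested probes 15.2% were lower and 13.7% higher at day 110, and 6.61% and 6.23% at day 90. SPOCK3 differed by -1.76 (adjusted p 4.96e-13), SDC2 by -1.03 (adjusted p 3.17e-12), CD44 by -1.06 (adjusted p 1.24e-08) and TNFAIP6 by -0.996 (adjusted p 8.83e-07) at day 110, while HAPLN1 (-0.35, adjusted p 0.36) and ACAN (-0.10, adjusted p 0.85) were not called. In the age change of MS minus that of LW 9 were called with a lower and 1 with a higher value, and by maternal genotype 7 and 1, beside 3.40% and 2.56%, and 1.88% and 1.16%, of all tested probes.

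RefSeq's annotation of Sscrofa11.1 was used here only for the order of genes and the chromosome of BGN. In it, DCN, LUM, KERA and EPYC follow each other, as do OGN, OMD, ASPN and ECM2, and FMOD, PRELP and OPTC. In the first cluster DCN, LUM and KERA fell in all 4 genotypes, and in the second OGN, ASPN and ECM2 did, while EPYC and OMD had no tested probe. In the third FMOD fell and PRELP did not, and OPTC was called in no genotype.

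How far the members vary together among fetuses of the same group was described by Pearson's r over the 61 arrays after group and slide means were removed, which leaves differences of tissue composition and of array quality that fetuses may share. Over the 21 pairs of VCAN, DCN, BGN, LUM, FMOD, OGN and ASPN it ran from 0.18 (VCAN with FMOD) to 0.72 (DCN with BGN), with a median of 0.46. Pairs with PRELP ran from -0.25 to 0.20 and pairs with HSPG2 from 0.0044 to 0.22.

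The genes most like each member by this measure were COL1A2 (r = 0.82), COL20A1 and FNDC1 for DCN, COL16A1 (0.86), FNDC1 and PEA15 for BGN, and FSTL1 (0.85), COL8A2 and AKAP12 for ASPN. For VCAN they were SND1 (0.71), TUBB5 and COL21A1, for LUM NUCB2 (0.70), THY1 and KDELR3, for OGN NME4 (0.72), NGFR and HTRA1, and for FMOD POSTN (0.74), TNMD and C4ORF48. HSPG2 was most like EEF2K (0.62), SLA-DMA and ZNF385A. WNT11 (0.76), ATXN2L and CALCA were nearest to PRELP, but without the LW fetus at 9.19 these 3 had r of 0.10, 0.13 and 0.46. Over all 10287 other genes the 95th percentile of r was between 0.26 and 0.43 for the 9 members.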

How the data were processed

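Total RNA of longissimus muscle from 61 fetuses was hybridised to one-colour 60-base Agilent arrays, 1 fetus per array. The authors scanned the arrays and extracted intensity values with Agilent Feature Extraction 10.10.1.1, which subtracts local background, and the deposited table of log2 values was made by them with limma. The build used to design the probes is not given in the sources used here, so probes carry the names of the array files or of the published gene lists, and no coordinates are given. The sequence of 1 DCN probe is not reported here.

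Here the processed intensity was log2-transformed and quantile-normalized, with non-uniform spots left out, and a probe was kept if 80% or more of the arrays in any group had it well above background. Group means were fitted with limma 3.58.1 in R 4.3.3 over all kept probes, and adjusted p-values (Benjamini-Hochberg) under 1% were called. The parental model held age, maternal and paternal genotype and their pairwise interactions. The study's random sow effect was not fitted because the labels do not give the sow, so littermates count as separate samples and p-values measure only the spread between these samples. Age and dam genotype differ only between sows, while sire genotype differs within litters. The number of arrays limits the precision.

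Members and lists were chosen with earlier results of these data known. The text names all 9 members with their main probes, per pathway group the 2 genes with the largest mean age change among those called in the same direction in all 4 genotypes, the 3 genes most like each member, and neighbouring genes. The deposited log2 table, which differs from quantile-normalized log2 median signals of the scanner files by a median of 0.00061, served as an alternative, beside other signals, scalings, filters, models, probe summaries and left-out fetuses. The fit was checked on simulated data. Figures were drawn with matplotlib 3.10.9.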

Additional observations from a re-analysis of the deposited data

Results flagged for a closer look

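Among the 72 combinations of a main probe and a group, 10 held a fetus that stood apart from the rest of its group by Dixon's criterion, which chance meets in about 1 in 20 groups. MSLW day 110 replicate 3 was the highest of its group for VCAN (10.13, next 9.34), DCN (15.64, next 15.13) and OGN (12.67, next 12.05). MSLW day 110 replicate 4 was the lowest for FMOD (3.16, next 4.55). For BGN, LW day 110 replicate 9 was the lowest of its group (13.88, next 14.45) and MSLW day 90 replicate 6 the highest (16.33, next 15.91). For PRELP, LW day 90 replicate 4 was the highest (9.19, next 4.65), and MS day 90 replicate 3 (2.11, next 3.41) and MS day 110 replicate 3 (3.10, next 4.04) were the lowest. HSPG2 was highest in MS day 90 replicate 5 (6.11, next 5.83).

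By the test of the difference itself, MS and LW differed in age change for VCAN (-0.96), DCN (-0.57), BGN (-0.88), LUM (-0.82) and OGN (-0.86). It differed by maternal genotype for VCAN (-0.57), BGN (-0.57) and OGN (-0.49).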

How the results depend on the processing

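Over all alternatives, 6 to 7 of the 9 genes were called for age in each genotype, 6 for MS against LW at day 110, 4 to 5 for the difference in age change, 2 to 3 by maternal genotype, and 0 for the crosses against each other and against the mid-parent. The count of 6 for age arose where probes had to be well above background on all arrays, which left FMOD and PRELP out, and in MSLW also without MSLW day 110 replicate 4, where the FMOD call was lost. At day 90, 2 genes (LUM and ASPN) were called between MS and LW when only those groups were fitted. By paternal genotype 1 gene was called with the mean of a gene's probes (DCN -0.34), and 0 to 2 when each fetus of MSLW at day 110 was left out in turn. The OGN call by maternal genotype was also lost with normexp background (-0.43) and with the deposited values (-0.44), where LUM was called (-0.48 and -0.49), and that of VCAN with the mean of a gene's probes (-0.42). Slide as a block changed no call. No paired analysis was possible because the labels give no replicate numbers that groups share. Leaving out LW day 90 replicate 4 and MS day 90 replicate 3 was chosen after seeing the data.

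Values of members that were not called changed sign as follows, and the cause was not tested. DCN for MS minus LW at day 90 was -0.0087 with the median signal, -0.11 with the 75th percentile, -0.013 with normexp and -0.0086 with the deposited values, and FMOD was 0.00024 with non-uniform spots kept. Against the mid-parent at day 90, ASPN was 0.025 with the median signal, 0.0066 with the 75th percentile, 0.018 with normexp, 0.025 with the deposited values, 0.13 with the mean of probes, 0.0043 without MS day 90 replicate 3 (-0.021, with the sign kept, without LW day 90 replicate 4), LUM was 0.00074 with the 75th percentile, and PRELP was 0.11 without LW day 90 replicate 4 (-0.32, with the sign kept, without MS day 90 replicate 3). With the mean of probes DCN was -0.048 there, -0.032 at day 110, and -0.011 for LWMS minus MSLW at day 110. DCN by maternal genotype was 0.018 with the 75th percentile, and FMOD by paternal genotype -0.0049 with the deposited values. With each MSLW fetus of day 110 left out in turn, the mid-parent difference at that age ran from -0.095 to 0.051 for ASPN, -0.028 to 0.094 for BGN, -0.029 to 0.044 for DCN and -0.0084 to 0.039 for HSPG2, HSPG2 by maternal genotype from -0.0012 to 0.039, and FMOD by paternal genotype from -0.011 to 0.19. Signal over background limits FMOD and PRELP, whose probes many arrays did not measure.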
